A study of Mus musculus with 12 samples.

Results

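Goblet and Paneth cells are the secretory cells of the intestinal epithelium, and the array carried 4 probes for 3 of the genes by which their products can be followed. Members were all non-control probes whose gene name on the 12 h arrays was Agr2, Ang4, Clca3, Lyzs, Muc1, Muc2, Pap, Reg3g or Tff3, or began with Defcr. Of these 9 symbols, 3 had a probe of that name, namely Agr2, Muc1 and Lyzs, the last of them with 2 probes. No probe analysed here was named for the other 6 symbols or for the cryptdin (Defcr) family, and a search by gene number in the RefSeq table of the mouse assembly GRCm38.p6 added 0 probes. The members were thus 4 of the 20280 probes tested, and the defining goblet genes Muc2, Tff3 and Clca3 and all cryptdins were not analysed here.

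RNA was taken from the full-thickness small intestine of male FVB mice aged 6 weeks that were fed (0 h) or fasted for 12, 24 or 72 h in metabolic cages, under an infrared lamp from 24 h on. A pool of intestinal RNA from 2 mice was labelled with Cy3 for each of the 12 arrays and hybridised beside RNA of 6 fed mice in Cy5. Every time point thus had n = 3 pools, each of different mice, and these pools are the only replicates. For fed replicate 3 the source of the reference names only the 2 mice of its own pool, whereas its labelling protocol names all 6. The fed pools are shared by all comparisons with 0 h.

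Goblet cells secrete the gel-forming mucins and trefoil peptides that make up the mucus layer. Paneth cells lie at the base of the crypts of the small intestine and secrete lysozyme, cryptdins and other antimicrobial proteins. Agr2 encodes a protein disulfide isomerase of the endoplasmic reticulum that mucin-producing cells need to fold mucins. Muc1 encodes a membrane-bound mucin of epithelial surfaces, which is not itself a gel-forming goblet product. Mice have a pair of neighbouring lysozyme genes, of which Lyz1 is the form of Paneth cells and Lyz2 the form of macrophages and other myeloid cells.

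The gene number of both Lyzs probes is that of Lyz2, which lies on chromosome 10 at 117277541 to 117282272. Its neighbour Lyz1 lies at 117287795 to 117292868, 5522 bases away (GRCm38.p6), and 0 probes were named for it. Whether a Lyzs probe also takes up Lyz1 RNA cannot be read from the files, which hold no probe sequences, so the Lyzs values are given as those of lysozyme and not of Paneth cells. Agr2 lies on chromosome 12 at 35992925 to 36004081 and Muc1 on chromosome 3 at 89229056 to 89233381. In full-thickness tissue, fewer cells of a type and less RNA per cell cannot be told apart.

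Sequences upstream of the transcription start are shown for Agr2, the only member called in any of the 5 comparisons below when all arrays were used, and for the pair of neighbouring lysozyme genes. These bases are not transcribed and say nothing of which RNA a Lyzs probe reads. Each is the 250 bases before the RefSeq start in GRCm38.p6, read 5′ to 3′ on the strand of the gene. Capitals mark matches on either strand to the Krüppel-like factor core CACCC, the Ets family core GGAAGT or the TATA box TATAAA, none of which overlap here. A match on the minus strand reads GGGTG or ACTTCC.
Agr2, chr12:35992675-35992924, plus strand: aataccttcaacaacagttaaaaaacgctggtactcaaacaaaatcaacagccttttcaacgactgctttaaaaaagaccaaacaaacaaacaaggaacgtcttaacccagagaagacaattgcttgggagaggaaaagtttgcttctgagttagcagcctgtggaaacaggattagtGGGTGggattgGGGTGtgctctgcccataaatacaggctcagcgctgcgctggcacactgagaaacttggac
Lyz2, chr10:117282273-117282522, minus strand: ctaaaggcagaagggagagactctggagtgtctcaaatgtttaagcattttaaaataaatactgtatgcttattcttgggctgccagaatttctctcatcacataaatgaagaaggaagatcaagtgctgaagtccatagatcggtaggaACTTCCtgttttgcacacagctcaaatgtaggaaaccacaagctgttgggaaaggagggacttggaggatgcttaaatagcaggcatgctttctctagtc
Lyz1, chr10:117292869-117293118, minus strand: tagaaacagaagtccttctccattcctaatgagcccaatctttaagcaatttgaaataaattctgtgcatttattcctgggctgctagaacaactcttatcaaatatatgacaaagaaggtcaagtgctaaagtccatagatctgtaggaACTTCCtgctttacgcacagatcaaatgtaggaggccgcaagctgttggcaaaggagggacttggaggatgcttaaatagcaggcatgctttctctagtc
The Agr2 window held CACCC at positions -72 and -61 on the minus strand, and 52% of 32851 promoter windows of that length held this motif. Both lysozyme windows held GGAAGT at -100 on the minus strand, as did 19.7% of all windows somewhere in their length. TATAAA was found in 12.4% of windows and in none of these 3. An alignment of the Lyz2 and Lyz1 windows had 205 identical positions in 260 columns, or 78.8%, against 50% for Agr2 with Lyz2. These matches describe the letters in the windows and say nothing of which factor binds there.

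The arrays differed in ways that bear on all 4 probes. The fed and 72 h arrays shared a file format and a Cy5 range, with median Cy5 intensities of 124 to 142, while those of the 12 h and 24 h arrays were 392 to 627. Format and Cy5 range are thus the same on both sides when 72 h is set against 0 h, or 24 h against 12 h. In the other contrasts (12 h or 24 h with 0 h, 72 h with 24 h) they cannot be told apart from the effect of fasting. Median signals were 3.36 to 6 times the background in Cy3 and 1.65 to 2.11 times in Cy5. A pair of arrays stood apart for lysozyme, fed replicate 3 in Cy3 and 12 h replicate 3 in Cy5. On fed replicate 3 the Cy3 level of the probe A_65_P08780 was -4.69 (log2) from the mean of the other fed arrays, the lowest deviation of 18109 probes, and on 12 h replicate 3 its Cy5 level was at -4.87. The member results and the counts of each list are also given without both, a setting chosen after the data were seen, and the named genes whose call ended there are given with their value.

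The log ratio of an array is its normalized log2 of Cy3 over Cy5. Subtracting the mean log ratio of one time point from that of another gave the log2 fold change, with its standard error (SE) from limma. A probe is called where the p-value, adjusted over all probes, is under 0.05. At 12 h, 0 of the 4 probes were called, against 10.9% of all probes, and 2 had an unadjusted p under 0.05. At 24 h, 0 of 4 were called, against 10.1% of all probes, and 1 had an unadjusted p under 0.05. At 72 h, 1 of 4 was called, Agr2, which was lower, against 10.6% of all probes called and 5.8% called lower. Between 12 h and 24 h, 0 of 4 were called, against 2.92%, with 1 at an unadjusted p under 0.05. Between 24 h and 72 h, 1 of 4 was called, again Agr2, against 10.6%. The median log2 fold change of the 4 probes against 0 h was 0.64, 0.05 and -0.02 in order of time, and that of all probes was -0.02, 0.02 and 0.01. The 12 h median is raised by the Lyzs probes, at 2.98 and 1.18, beside 0.08 for Agr2 and 0.11 for Muc1. Without fed replicate 3 and 12 h replicate 3, the 4 probes lay between -0.27 and 0.22 at 12 h. With 4 probes, a single call is not set apart from the shares of all probes.

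**Figure D1:**
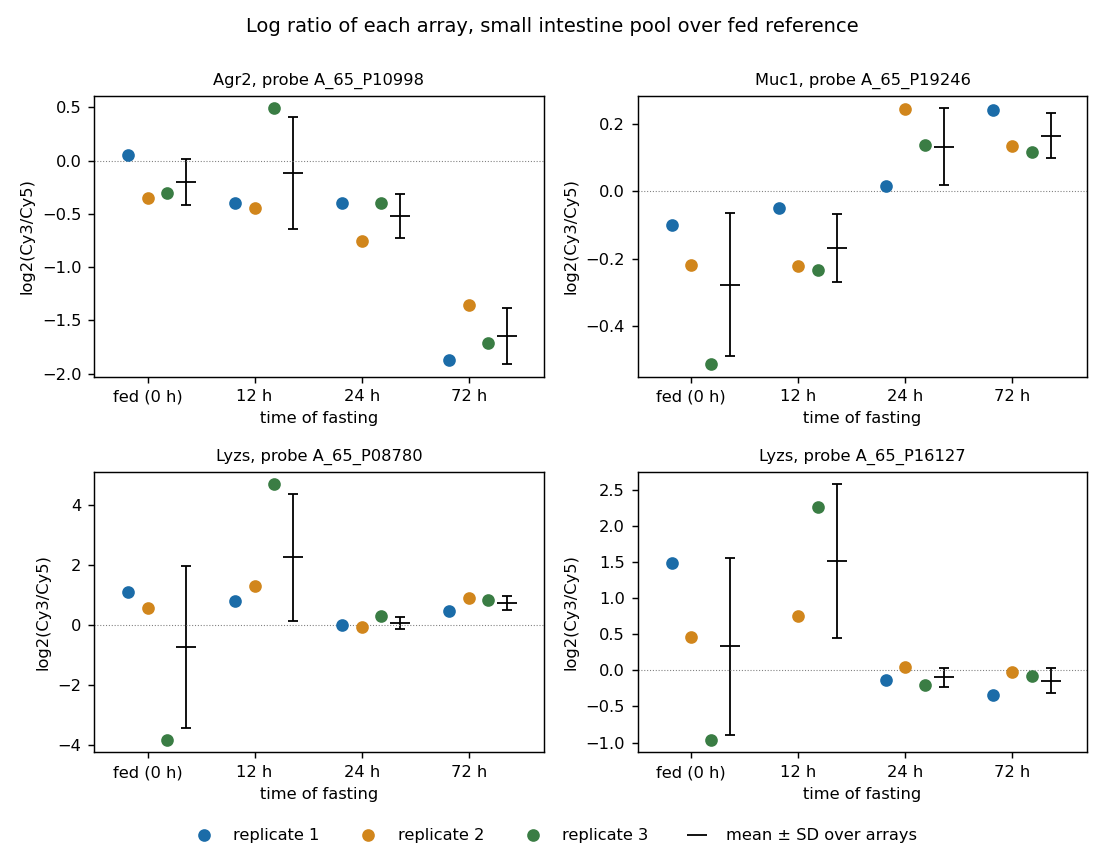
Log2(Cy3/Cy5) of the 4 probes on each of the 12 arrays, with the mean ± SD of each time point (n = 3 arrays, 2 for the 12 h point of Lyzs probe A_65_P16127). The 3 arrays of 72 h lie between -1.87 and -1.36 for Agr2, below all other arrays, and both Lyzs probes are lowest on fed replicate 3 and highest on 12 h replicate 3.

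Agr2 RNA was 2.73-fold lower at 72 h than in the fed pools, and no change was called at 12 h or 24 h. The log ratios of Agr2 were 0.05, -0.35 and -0.31 in the fed pools, and -0.40, -0.44 and 0.49 after 12 h. Those after 24 h were -0.40, -0.76 and -0.40, and those after 72 h were -1.87, -1.36 and -1.71. All 72 h pools thus lay below all pools of the other time points, while those of 12 h overlapped with the fed pools. In means, the order ran from 12 h (-0.12 ± 0.53, SD, n = 3) over 0 h (-0.20 ± 0.22, SD, n = 3) and 24 h (-0.52 ± 0.21, SD, n = 3) down to 72 h (-1.65 ± 0.26, SD, n = 3). In this order only the last step, from 24 h to 72 h, was called.

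Against 0 h, the log2 fold change of Agr2 was 0.08 ± 0.24 (SE) at 12 h, with an adjusted p of 0.849. It was -0.32 ± 0.24 (SE) at 24 h, with an adjusted p of 0.412, although the 3 pools of 24 h lay below all fed pools. At 72 h it was -1.45 ± 0.24 (SE), with a 95% confidence interval of -1.96 to -0.94 and an adjusted p of 0.00186. This value ranked within the lowest 0.414% of all probes at 72 h. From 24 h to 72 h Agr2 fell by 1.13 ± 0.24 (SE) on the log2 scale, or 2.18-fold, with an adjusted p of 0.00994. From 12 h to 24 h the change was -0.40 ± 0.24 (SE), with an adjusted p of 0.353. The step from 24 h to 72 h was no longer called without 72 h replicate 1 (adjusted p = 0.0651) or under another normalization of the channels (adjusted p = 0.0639 to 0.0818), whereas the change from 0 h to 72 h was called in 27 of 27 alternatives.

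The fall of Agr2 was measured in the Cy3 channel, which carries the sample. Background-uncorrected Cy3 medians were 7049, 3184 and 5094 in the fed pools and 804, 1025 and 1779.5 at 72 h, on arrays of the same format. The Cy5 signals of the same arrays were 3192, 2498.5 and 3557 in the fed group and 2748, 2721 and 2534.5 at 72 h. After normalization, Cy3 alone fell by 1.41 ± 0.19 (SE) on the log2 scale from 0 h to 72 h (adjusted p = 0.000494), in a fit that called 8.65% of all probes. The Cy5 level differed by 0.04 ± 0.20 (SE), with an unadjusted limma p of 0.860. From 24 h to 72 h the Cy3 level alone fell by 1.15 ± 0.19 (SE), with an adjusted p of 0.00115, where 16.4% of all probes were called. Without fed replicate 3 and 12 h replicate 3 the log2 fold change of Agr2 was -1.50 ± 0.19 (SE) at 72 h, with an adjusted p of 0.000369.

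Muc1 RNA was near the lower end of what the arrays could measure, and no difference was called. The probe was well above background in Cy3 on 1 of 3 fed arrays, on 2 of 3 at 12 h and on all 3 at 24 h and at 72 h. This mark differed between arrays for all probes. Of these, 58.8 to 68.8% passed it on fed arrays, 85.8 to 99.3% at 12 h and 24 h, and 85.7 to 98.4% at 72 h. The raw Cy3 medians of Muc1 were 126 and 132.5 on fed replicates 2 and 3, which did not pass, and 131 to 141.5 at 24 h. The log ratios of Muc1 were -0.10, -0.22 and -0.51 in the fed pools, and -0.05, -0.22 and -0.23 after 12 h. Those after 24 h were 0.02, 0.24 and 0.14, and those after 72 h were 0.24, 0.14 and 0.12. The pools of 24 h and 72 h lay above all fed and 12 h pools, and those of 24 h and 72 h overlapped. In means, the order from the lowest was 0 h (-0.28 ± 0.21, SD, n = 3), 12 h (-0.17 ± 0.10, SD, n = 3), 24 h (0.13 ± 0.11, SD, n = 3) and 72 h (0.17 ± 0.07, SD, n = 3), and no step of it was called.

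The log2 fold change of Muc1 against 0 h in order of time was 0.11 ± 0.15 (SE), 0.41 ± 0.15 (SE) and 0.44 ± 0.15 (SE). The adjusted p-values were 0.667, 0.101 and 0.0814. The change in Cy3 alone was 0.34 ± 0.21 (SE) at 72 h and -0.04 ± 0.21 (SE) at 24 h, when the Cy5 level was lower than on the fed arrays by -0.45 ± 0.16 (SE). At 24 h the difference of the log ratio thus lay in the reference channel, across file formats. The raw Cy3 medians of Muc1 ranged from 126 to 163 in the fed group and from 216 to 250 after 72 h, over backgrounds of 40 to 52.

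**Figure D2:**
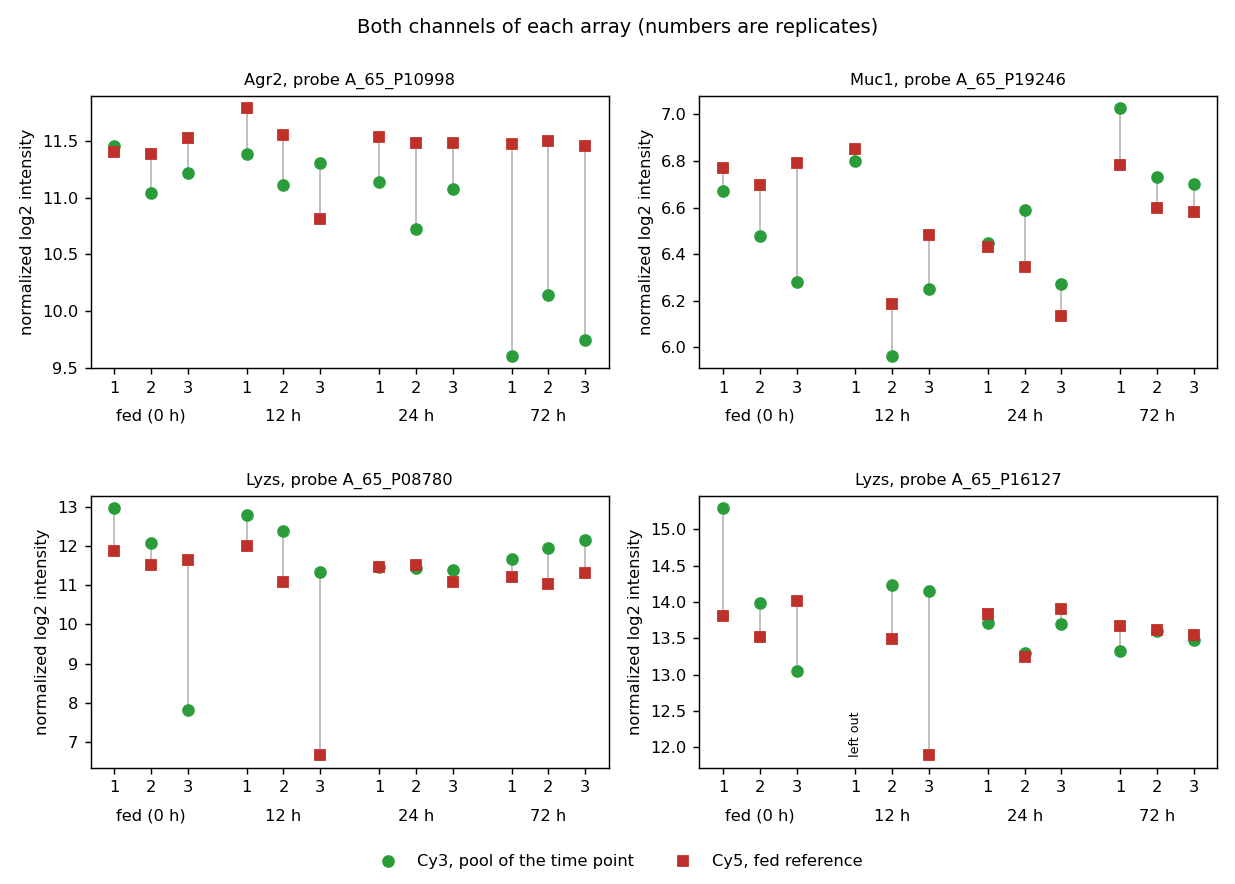
Normalized log2 intensity of Cy3 (sample pool, circles) and Cy5 (fed reference, squares) for the 4 probes on each array, joined by a line per array. For Agr2 the Cy5 level at 72 h is 11.5 on all 3 arrays while Cy3 lies between 9.61 and 10.1, and for Lyzs probe A_65_P08780 the Cy3 level of fed replicate 3 is 7.83 and the Cy5 level of 12 h replicate 3 is 6.66.

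Lyzs was read by 2 probes, and both varied most among the fed and the 12 h arrays. The probe A_65_P08780 had log ratios of 1.09, 0.56 and -3.82 in the fed pools, and 0.80, 1.29 and 4.67 after 12 h. Those after 24 h were 0.00, -0.07 and 0.31, and those after 72 h were 0.47, 0.90 and 0.83. The low fed value came from Cy3, where the raw median was 441 on replicate 3 against 18842 and 6355.5 on the other fed arrays. The high 12 h value came from the reference, whose raw Cy5 median was 392 on replicate 3 against 4727 and 3138. At 24 h and 72 h the 3 pools lay close together, with SDs of 0.20 and 0.24, against 2.69 in the fed group and 2.11 at 12 h.

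The probe A_65_P16127 was the brightest member, with raw Cy3 medians of 6726.5 to 58120, and no spot of it was saturated. Its log ratios were 1.49, 0.46 and -0.96 in the fed pools, and 0.76 and 2.26 on replicates 2 and 3 of 12 h. Those after 24 h were -0.13, 0.05 and -0.21, and those after 72 h were -0.34, -0.02 and -0.07. The spot on 12 h replicate 1 was marked as an outlier and left out. As on the other probe, fed replicate 3 was the lowest and 12 h replicate 3 the highest array, and the pools of 24 h and 72 h lay within the range of the fed pools.

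With all 12 arrays, no comparison of either Lyzs probe was called. At 12 h the log2 fold change was 2.98 ± 1.05 (SE) for A_65_P08780 (adjusted p = 0.0804) and 1.18 ± 0.54 (SE) for A_65_P16127 (adjusted p = 0.163). In the same order, the 12 h change in Cy3 alone was 1.21 ± 0.85 (SE) and 0.09 ± 0.43 (SE). That in Cy5, the fed reference, was -1.77 ± 0.92 (SE) and -1.09 ± 0.36 (SE). For A_65_P16127 the 12 h difference of the log ratio thus lay in the reference channel, across file formats. At 24 h the log2 fold change was 0.80 ± 1.05 (SE) and -0.43 ± 0.48 (SE), with adjusted p-values of 0.664 and 0.603. At 72 h it was 1.46 ± 1.05 (SE) and -0.48 ± 0.48 (SE), with adjusted p-values of 0.428 and 0.589, so that the 2 probes of the gene had opposite signs. The 95% confidence intervals of both, -0.79 to 3.71 and -1.51 to 0.55, included 0. From 12 h to 24 h the values were -2.18 ± 1.05 (SE) and -1.60 ± 0.54 (SE), with adjusted p-values of 0.254 and 0.116. From 24 h to 72 h they were 0.66 ± 1.05 (SE) and -0.05 ± 0.48 (SE), with adjusted p-values of 0.742 and 0.965.

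Without fed replicate 3 and 12 h replicate 3, several Lyzs comparisons were called. At 24 h both probes were then lower than at 0 h, by a log2 fold change of -0.75 ± 0.21 (SE, adjusted p = 0.031) for A_65_P08780, which turned its sign, and of -1.07 ± 0.25 (SE, adjusted p = 0.0148) for A_65_P16127. In that fit 2 of 4 members were called at 24 h, against 16.5% of all probes. At 72 h A_65_P16127 was lower by -1.12 ± 0.25 (SE, adjusted p = 0.0106) and A_65_P08780 was at -0.09 ± 0.21 (SE, adjusted p = 0.81), in a fit that called Agr2 as well and 14.8% of all probes. The 2 probes thus did not give the same picture at 72 h in this fit. From 12 h to 24 h A_65_P08780 was lower by -0.97 ± 0.21 (SE, adjusted p = 0.0216) and A_65_P16127 was at -0.85 ± 0.31 (SE, adjusted p = 0.134), against 5.09% of all probes. From 24 h to 72 h A_65_P08780 was higher by 0.66 ± 0.19 (SE, adjusted p = 0.0234), with Agr2 the other of 2 members called, against 24.7% of all probes. At 12 h 0 of 4 were called, against 5.07%, and A_65_P08780 was at 0.22 ± 0.23 (SE). These values leave the fed and 12 h groups with 2 arrays each, fewer for A_65_P16127 at 12 h, which then rests on replicate 2 alone and is assumed to vary like the other groups.

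**Figure D3:**
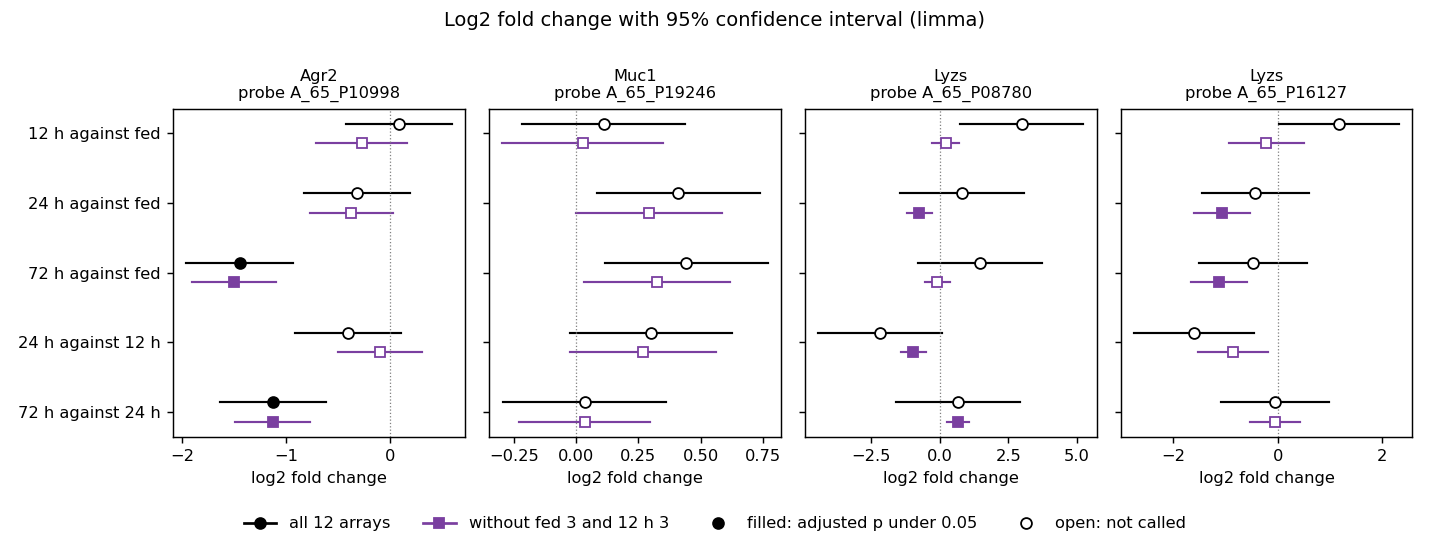
Log2 fold change of each probe with its 95% confidence interval (limma) in 5 comparisons, with all 12 arrays (circles) and without fed replicate 3 and 12 h replicate 3 (squares); filled symbols are called at an adjusted p under 0.05. Agr2 is called at 72 h against 0 h and against 24 h in both fits, and the wide intervals of the Lyzs probes narrow without the 2 arrays.

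A list of other products of goblet and Paneth cells, chosen with earlier results of these data known, had 8 probed genes beyond the members. One of the 8 probes, Pcee-pending, carries a gene number that is today that of Ccnl2, a cyclin and no secretory product, and it stays in the counts of the list. The probe named Clca1 carries a gene number that is today that of Clca3a1, and it stays in the counts as well. At 12 h 2 of the 8 were called higher and 2 lower, with a median log2 fold change of 0.14 against -0.02 for all probes, of which 4.9% were called higher and 6.02% lower. Muc13, a membrane-bound mucin named Ly64 in the files, rose by 0.71 ± 0.17 (SE, adjusted p = 0.0205). Mmp7, the protease that activates cryptdins in Paneth cells, rose by 2.02 ± 0.57 (SE, adjusted p = 0.0399), with log ratios of 0.52, -0.47 and -2.03 in the fed pools and 0.86, 0.51 and 2.71 at 12 h. The extreme arrays of Mmp7 were those of lysozyme, and without fed replicate 3 and 12 h replicate 3 it was no longer called, at 0.66 ± 0.28 (SE, adjusted p = 0.169). Scin, which encodes the actin-severing protein scinderin, fell by 1.13 ± 0.21 (SE, adjusted p = 0.00814), and was at -0.40 in Cy3 alone (adjusted p = 0.284). The probe Pcee-pending fell by 1.17 ± 0.19 (SE, adjusted p = 0.00451), and was at 0.02 in Cy3 alone. Besides Pcee-pending, Scin was thus the only gene of the list called lower at 12 h. Without fed replicate 3 and 12 h replicate 3, 1 of the 8 was called higher and 2 lower at 12 h, against 5.07% of all probes called in either direction.

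At 24 h 1 of the 8 genes of this list was called, higher, against 3.79% of all probes called higher and 6.26% lower. This was Fcgbp, a mucus protein of goblet cells whose probe is named A430096B05Rik in the files, at 0.74 ± 0.20 (SE, adjusted p = 0.0353); it was chosen after its value was seen. Its change at 72 h was 0.01 ± 0.20 (SE). At 72 h 1 of the 8 was called, lower, against 5.8% of all probes called lower and 4.8% called higher. This was Scin, at -1.07 ± 0.21 (SE, adjusted p = 0.00596), with log ratios of 0.17, -0.24 and 0.26 in the fed pools and -1.21, -1.03 and -0.77 at 72 h. The 72 h pools of Scin lay below all fed pools. The median of the 8 at 72 h was -0.10, and 0.01 for all probes. Without the pair of arrays 1 of the 8 was called higher and 0 lower at 24 h, against 16.5% of all probes called in either direction. At 72 h 1 was then called higher and 1 lower, against 14.8% of all probes. The higher one was the probe named Clca1, today Clca3a1, at 0.52 ± 0.14 (SE, adjusted p = 0.0261).

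A list for the secretory lineage and for transcription factors of secretory cells had 22 probed genes, among them genes of crypts and of the epithelium in general. Its calls are thus not calls of secretory cells alone. Of the 22, 4 were called higher at 12 h, 5 higher at 24 h and 1 higher at 72 h. None was called lower at any of these times. Of all probes, 4.9%, 3.79% and 4.8% were called higher. In Cy3 alone the list did not lie on one side, with 1 higher and 2 lower at 12 h, 2 higher and 2 lower at 24 h, and 2 higher and 0 lower at 72 h. The medians of the log2 fold change were 0.09, 0.25 and 0.14, against -0.02, 0.02 and 0.01 for all probes. In 72 h against 24 h, 0 were higher and 2 lower. Tcf7l2, the nuclear effector of Wnt signalling that maintains the crypts, was called at all 3 times, at 1.74 ± 0.32 (SE) at 12 h, 1.22 ± 0.32 (SE) at 24 h and 1.99 ± 0.32 (SE) at 72 h, with an adjusted p of 0.00172 at 72 h. Its log ratios were -0.45, -0.13 and -0.81 in the fed pools and 1.76, 2.05 and 0.76 at 72 h. Elf3, an Ets factor of epithelial cells, rose by 1.44 ± 0.28 (SE, adjusted p = 0.00831) at 12 h and by 1.08 ± 0.28 (SE, adjusted p = 0.0266) at 24 h, and was at -0.26 ± 0.28 (SE) at 72 h. In Cy3 alone Elf3 was at 0.54 (adjusted p = 0.102) at 12 h and 0.13 (adjusted p = 0.686) at 24 h.

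Of the 4 genes of the lineage list called higher at 12 h, Klf5, a Krüppel-like factor of crypt cells, and Xbp1, a factor of the unfolded protein response that Paneth and goblet cells need, had a single 12 h value. It was that of replicate 3, with a log ratio of 2.38 for Klf5 and 3.33 for Xbp1, since the spots of the other 12 h arrays were left out as outliers. These 2 calls therefore compare that array with the fed arrays and have no replicate check. In Cy3 alone Klf5 was at -0.02 (adjusted p = 0.969) and Xbp1 at 0.56 (adjusted p = 0.585) at 12 h. The 5 genes called higher at 24 h were Tcf7l2, Elf3, Klf5, Foxa1 and Spdef, the last of which drives goblet and Paneth cell maturation and is named Pse-pending in the files. Spdef and Foxa1, chosen after their values were seen, were at 0.85 ± 0.22 (SE, adjusted p = 0.0329) and 0.67 ± 0.20 (SE, adjusted p = 0.0444). In Cy3 alone Spdef was at 1.97 (adjusted p = 0.00021) and Foxa1 at 0.19 (adjusted p = 0.52) at 24 h. Without fed replicate 3 and 12 h replicate 3, the numbers called higher of the 22 were 2, 6 and 2 in order of time, with 0 lower. That fit called 5.07%, 16.5% and 14.8% of all probes in either direction. Foxa1 was then no longer called at 24 h, at 0.55 ± 0.20 (SE, adjusted p = 0.0751).

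The enzymes that make the sugar donors and O-linked glycans of mucins were probed for 34 genes. At 72 h 2 of them were called higher and 4 lower, where 4.8% of all probes were called higher and 5.8% lower, and their median was -0.21 against 0.01 for all probes. C1galt1c1, the chaperone of the core 1 galactosyltransferase, named 1500002I11Rik in the files, was lower at all 3 times, at -0.85 ± 0.17 (SE) at 12 h, -0.84 ± 0.17 (SE) at 24 h and -1.28 ± 0.17 (SE) at 72 h (adjusted p = 0.00042). Galnt1, a transferase that starts O-glycans, was at 2.06 ± 0.46 (SE, adjusted p = 0.0121) at 72 h from the 2 arrays that had a value, 1.59 and 2.59. Galnt1 had 2 probes, of which the brighter is given and the other is not reported here. At 12 h 2 were called higher and 3 lower, where 4.9% of all probes were called higher and 6.02% lower, with a median of -0.10. The 2 higher were Galnt6 at 1.58 ± 0.44 (SE, adjusted p = 0.0368) and St3gal1, a sialyltransferase named Siat4a in the files and also read from the brighter of 2 probes, at 1.28 ± 0.35 (SE, adjusted p = 0.0329). For both, 12 h replicate 3 was the highest array, at 2.84 and 1.57, and without the pair of arrays neither was called (0.56 and 0.49, adjusted p = 0.0904 and 0.0905). At 24 h 0 were called higher and 1 lower. Without fed replicate 3 and 12 h replicate 3, 0 were called higher and 2 lower at 12 h, 1 higher and 5 lower at 24 h, and 2 higher and 6 lower at 72 h. The shares of all probes called in either direction in that fit were 5.07%, 16.5% and 14.8%. St3gal1 was then called lower at 72 h, at -0.90 ± 0.15 (SE, adjusted p = 0.00186).

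**Figure D4:**
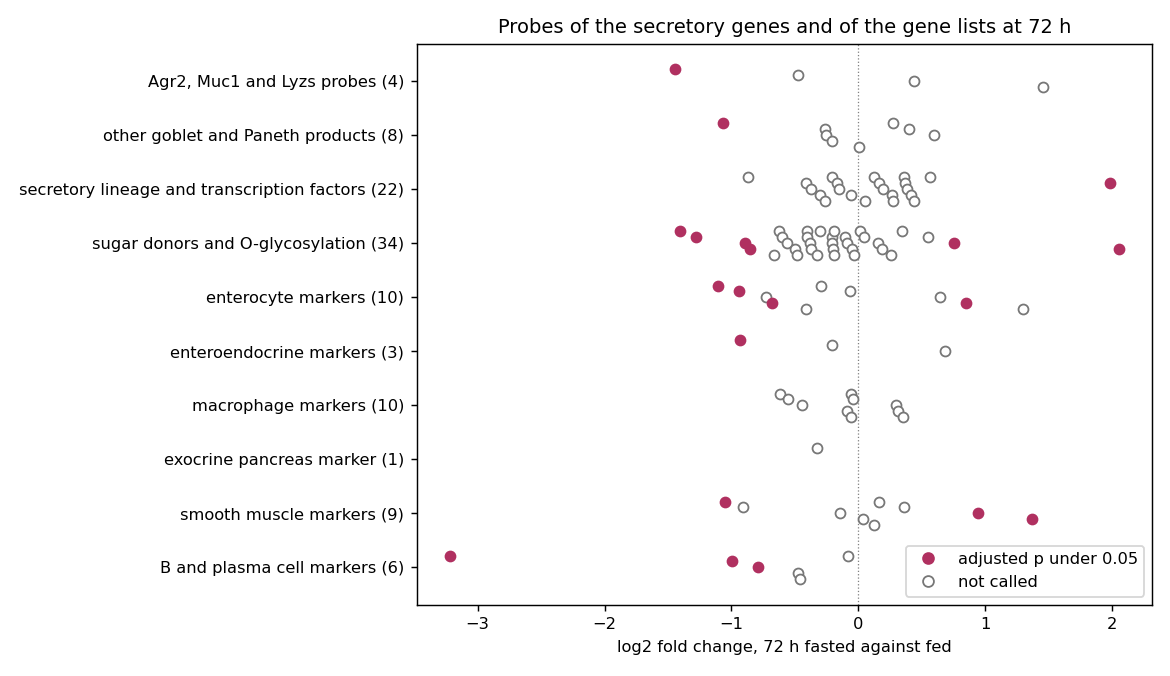
Log2 fold change at 72 h against fed for the 4 probes and for each gene of 9 lists (number of genes in parentheses; brightest probe per gene), with called genes filled. Agr2 lies at -1.45, and 1 of 8 genes of the list of other products, 1 of 22 genes of the lineage list and 6 of 34 glycosylation genes are called.

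Markers of some other cells of the full-thickness tissue were called as well, and their part in the values above was not tested. Of all probes, 4.9%, 3.79% and 4.8% were called higher at 12 h, 24 h and 72 h, and 6.02%, 6.26% and 5.8% lower. Without fed replicate 3 and 12 h replicate 3, 5.07%, 16.5% and 14.8% were called in either direction. These shares stand beside the counts of each cell type below. Of 10 enterocyte markers 1 was called higher and 3 lower at 72 h, among them the glucose transporter Slc2a2 at -0.94 ± 0.21 (SE, adjusted p = 0.00944). Another of the 3 lower, Lct (named LOC226413 in the files), had a single value in the fed and in the 72 h group and so no replicate check. Its log ratio was 0.45 on fed replicate 3 and -0.66 on 72 h replicate 2. The summed normalized Cy3 level of the enterocyte markers ranged from 101448 to 142920 in the fed group and from 111700 to 118549 after 72 h. Without the pair of arrays Lct had no value against 0 h, and 2 of the other enterocyte markers were called higher and 3 lower at 72 h.

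Of 9 smooth muscle markers 5 were called higher at 12 h, 3 higher at 24 h, and 2 higher and 1 lower at 72 h. In Cy3 alone 3 of these markers were called higher and 1 lower at 12 h and at 24 h, and 1 higher and 1 lower at 72 h. Their mean log ratio ranged from -0.41 to 0.01 in the fed group, from 0.46 to 1.22 after 12 h, from 0.32 to 0.49 after 24 h and from -0.27 to 0.01 after 72 h. Desmin, an intermediate filament protein of muscle, was called at each time, at 1.37 ± 0.37 (SE, adjusted p = 0.0301) after 72 h. In Cy3 alone desmin was called at 24 h only, at 1.83 (adjusted p = 0.0124). It was at 1.26 (adjusted p = 0.0818) at 12 h and 1.19 (adjusted p = 0.128) at 72 h. Without the pair of arrays 4 were called higher at 12 h, 3 higher at 24 h, and 2 higher and 1 lower at 72 h, and the actin gene Acta2 was no longer called at 12 h (0.81 ± 0.28, SE, adjusted p = 0.107). Of 6 B and plasma cell markers 3 were called lower at 72 h and 3 were not called. The largest fall was that of Igj, the joining chain of secreted antibodies, at -3.22 ± 0.24 (SE, adjusted p = 4.96e-06). Ighm (named Igh-6) and Ms4a1 were at -0.99 ± 0.18 (SE) and -0.79 ± 0.19 (SE). The summed level of the list ranged from 3043 to 4322 in the fed group and from 867 to 977 after 72 h. That sum weighs bright genes most, and Igj had a mean log2 Cy3 of 10.8, against 7.43 for Ighm and 6.81 for Ms4a1. Without the pair of arrays 4 were called lower at 72 h.

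Macrophages express the lysozyme to which the Lyzs probes are assigned, so their markers stand beside the Lyzs values. Of 10 macrophage markers, 1 was called higher at 12 h, 2 higher at 24 h and 0 at 72 h, and 0 lower at any of these times. The one called at 12 h was Laptm5, a lysosomal protein of blood cells, at 0.51 ± 0.15 (SE, adjusted p = 0.048), which without the pair of arrays was 0.41 ± 0.16 (SE, adjusted p = 0.143). In that fit 0 macrophage markers were called at 12 h, 3 higher and 1 lower at 24 h, and 0 at 72 h. Their summed Cy3 level was 3087 to 4159 on fed arrays, 3784 to 4112 at 12 h, 3554 to 3933 at 24 h and 2505 to 3906 at 72 h. Of 3 enteroendocrine markers, 1 was called, neurotensin (named 5033428E16Rik in the files), which was lower at all 3 times and at -0.93 ± 0.21 (SE, adjusted p = 0.0101) at 72 h. In Cy3 alone it was not called at any of these times, with an adjusted p of 0.0531, 0.109 and 0.0518. The granule protein gene Chga was at 0.69 ± 0.23 (SE, adjusted p = 0.0778) and the secretin gene Sct at -0.21 ± 0.28 (SE, adjusted p = 0.697) at 72 h. The single exocrine pancreas marker, Cpa1, varied within each group, with log ratios of -1.62 to 0.78 in the fed group and -1.44 to -0.07 after 72 h.

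The probes most like Agr2 and the brighter Lyzs probe were ranked by Pearson correlation of the log ratio across arrays, as a description, since arrays of a time point share their treatment. Among 5139 named probes with a value on all 12 arrays, the 5 most like Agr2 were Tpi, a glycolytic enzyme (r = 0.94), the proteasome subunit Psmb4 (r = 0.94), the actin-binding peptide Tmsb4x (r = 0.93), Madh1, today Smad1, a mediator of BMP signalling (r = 0.93), and Rab11a, a GTPase of recycling endosomes and apical traffic (r = 0.93). At 72 h these were at -1.27, -0.79, -1.23, -1.23 and -1.17, and each was called lower. Without fed replicate 3 and 12 h replicate 3 the correlations were 0.92 to 0.93 over 10 arrays.

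Among 5507 probes and 11 arrays, those most like Lyzs A_65_P16127 included the proteasome subunit Psma5 (r = 0.98), the NADPH oxidase subunit Cyba (r = 0.97) and the mitochondrial ribosomal protein Mrpl28 (r = 0.97). These 3 were low on fed replicate 3, with log ratios of -1.26 to -1.05, and high on 12 h replicate 3, at 1.30 to 1.52. At 72 h their fold changes lay between -0.40 and -0.23 on the log2 scale, with adjusted p-values of 0.569 to 0.762. Without those 2 arrays the correlations were 0.91 to 0.96 over 9 arrays.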

How the data were processed

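RNA of the whole small intestine was measured on 12 two-colour oligonucleotide arrays. The authors scanned each array and deposited, per the file headers, the median Cy3 and Cy5 intensity of every spot and of its local background from Feature Extraction software, with no scaling between arrays. From these, background was corrected with normexp (offset 50), 1075 control spots and 91 spots without a probe name of 21446 were dropped, outlier spots (0.212 to 5.42%) were left out, and the 24 channels were quantile normalized together. The log2(Cy3/Cy5) of 20280 probes was fitted in limma 3.58.1 (R 4.3.3) with a mean per time point and eBayes, and p-values were adjusted by Benjamini-Hochberg over all probes. Dyes were not swapped, so a dye effect of a probe is shared by all arrays.

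The log ratio that the authors deposited, log10 of Cy5 over Cy3 in the scanner files, served as an alternative after its misplaced decimal points and exponents were set right. Of the probes, 9946 had a current symbol in the RefSeq table. Genes of other lists were read from their brightest probe, and up to 5 called genes with the largest change at 12 h or 72 h were named for each list. Some genes that this rule names are not reported here. The members and lists were chosen with earlier results of these data known. Alternatives varied the background correction, normalization, spot and probe filters, samples, variance model and thresholds, and each replicate was left out in turn. The fitting code was tested on simulated data. Precision is limited by the number of arrays.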

Additional observations from a re-analysis of the deposited data

Results flagged for a closer look

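Agr2 differed between the fasted time points themselves. Its log2 fold change at 72 h against 24 h was -1.13 ± 0.24 (SE), with an adjusted p of 0.00994 in limma, and all 3 pools of 72 h lay below all 3 of 24 h. The 24 h and 72 h arrays were of different file formats, which cannot be told apart from the time point here. In Cy3 alone the difference was -1.15 ± 0.19 (SE).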

How the results depend on the processing

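The fall of Agr2 at 72 h against 0 h was called in 27 of 27 alternatives, with log2 fold changes of -1.86 to -1.22 and adjusted p-values of 1.28e-05 to 0.0221. Against 24 h it kept its sign in 26 of 26 and was called in 21. Of the 4 probes, the number called at 72 h against 24 h was 0 with loess within arrays, 0 with loess then Aquantile, 0 with median centring and 0 with the Feature Extraction log ratio, 2 when only the groups compared were fitted, and 0 to 1 with each replicate left out. At 12 h it was 2 when tested directly against the Cy5 reference, and 0 to 1 with each replicate left out, where A_65_P08780 was called without 12 h replicate 1 (adjusted p = 0.0312). At 24 h it was 1 with median centring (Muc1, 0.62, adjusted p = 0.0284). At 72 h it was 1 to 2 with each replicate left out, where Muc1 was called without 12 h replicate 3 (adjusted p = 0.0441). From 12 h to 24 h it was 1 at the thresholds of the methods (unadjusted p under 0.01 and 1.4-fold) and 0 to 1 with each replicate left out, where A_65_P16127 was called without fed replicate 3 (adjusted p = 0.0448). The alternative without both fed replicate 3 and 12 h replicate 3, chosen after seeing the data, called 2 probes at 24 h, 2 at 72 h, 1 from 12 h to 24 h and 2 from 24 h to 72 h, and turned A_65_P08780 at 24 h to -0.75. The causes were not tested.

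Replicate numbers did not pair the arrays, since 2 of 18 same-numbered pairs had deviations correlated over 0.1 (range -0.28 to 0.13). With the replicate number as a block no call of a member changed, and the adjusted p of Agr2 was 0.00536 at 72 h against 0 h and 0.0195 against 24 h. Over all probes, the 2150 calls at 72 h against 0 h ranged from 852 (without 72 h replicate 1) to 5065 (directly against the Cy5 reference), the 2213 at 12 h from 0 (only the groups compared) to 4777, the 2038 at 24 h from 587 to 4981, the 592 between 12 h and 24 h from 24 to 1669, and the 2150 between 24 h and 72 h from 551 to 5003. Among the other lists over 28 settings, the 8 genes of the product list had 0 to 1 higher and 1 to 2 lower calls at 72 h. The 22 genes of the lineage list had 1 to 2 higher and 0 to 5 lower calls there, and the 34 glycosylation genes 0 to 5 higher and 2 to 9 lower. At 12 h the higher calls fell to 0 in each of these 3 lists under at least one setting. A block for slide or scan was not run, since the slide and scan of each array are not known here. Dim signal limits Muc1, which was not well above background on 2 of 3 fed arrays, where 58.8 and 68.8% of all probes were.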

Other observations

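Across 18109 probes, the Cy3 deviation of fed replicate 3 from the other fed arrays correlated with the Cy5 deviation of 12 h replicate 3 at r = 0.46 and with its own Cy5 deviation at r = 0.55, and with those of the other 10 arrays at -0.47 to 0.17. These are correlations across probes, which are not independent, and arrays of a group share the mean from which they deviate. Their part in the lysozyme values was not tested.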
